A study of Mus musculus with 8 samples.

Results

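The 10 genes described here, Atf4, Ddit3, Trib3, Chac1, Asns, Psat1, Phgdh, Psph, Shmt2 and Mthfd2, belong to the response of mouse cells to a shortage of amino acids and to the synthesis of serine. They were chosen by name from the ATF4 pathway, all 10 are among the 24980 gene symbols of the deposited count table, and all 10 passed the filter on low counts that left 17582 genes for testing. The libraries were made from 4 groups of skeletal myogenic cells with 2 biological replicates each. TF cells were progenitors sorted freshly from teratomas, mixed-tissue tumors that grew from EGFP-labeled E14 mouse embryonic stem cells (ESCs) in the injured and irradiated muscle of immunodeficient, dystrophin-lacking NSG-mdx4Cv mice. The sort kept EGFP-positive cells that lacked the endothelial and blood cell markers CD31 and CD45 and carried α7-integrin and VCAM-1. TE cells were such progenitors after culture to passage 8. SF cells were freshly isolated from adult animals and are satellite cells, the resident stem cells of muscle, while SE denotes the satellite cells after culture to the same passage in the same myogenic expansion medium. TF and TE come from 1 ESC line and SF and SE from adult muscle, so cell origin and genetic background cannot be told apart, and the age and strain of the satellite cell donors are not given in the sources used here.

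Cells that run short of amino acids, or whose endoplasmic reticulum (ER) is overloaded, activate kinases that phosphorylate the translation factor eIF2alpha. Protein synthesis then slows, but the mRNA of the transcription factor ATF4 is translated more, so that ATF4 protein can rise without a change in its RNA. ATF4 turns on genes for amino acid synthesis, uptake and tRNA charging, and with longer stress also genes that limit survival. In muscle the same pathway is known for its activation by mitochondrial defects. RNA counts do not measure the eIF2alpha phosphorylation or the ATF4 protein.

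The total was between 11930881 and 21146554 counts per library, of which 7.99% to 21.3% fell on Rn45s, the precursor of ribosomal RNA. Levels are given as normalized counts, which are counts scaled to a common effective library size (edgeR's TMM method). In every group the 2 replicates were further apart than counting error allows, the SE pair most of all. All 7 myogenic markers of a list were present in all 8 libraries. With culture Pax7, Myf5 and Vcam1 fell in both origins, by the thresholds given below. The other 4, Myod1, Itga7, Cdh15 and Des, rose in TE versus TF, and 2 of them in SE versus SF. Of all tested genes 9.86% rose and 16.2% fell in TE versus TF, and 20.9% and 19.8% in SE versus SF. Vcam1, which encodes a marker of the sort, had mean levels of 4798 in TF, 650 in TE, 5684 in SF and 1527 in SE. RNA of other cell types was present in the fresh libraries despite the sort. The summed level of 5 fibro-adipogenic markers was 26810 to 27540 normalized counts in TF and 14390 to 24260 in SF, against 23.8 to 98.2 in TE and 111 to 115 in SE. That of 5 endothelial markers was 1096 to 3733 in TF and 4378 to 5622 in SF, against at most 36.2 in the expanded libraries, where the endothelial genes Kdr and Emcn had 0 counts. That of 5 haematopoietic markers was 5715 in TF replicate 1 and 514 in TF replicate 2, 391 to 402 in SF and 12.4 to 107 in the expanded libraries. That of 4 Schwann markers was 192 to 197 in TF and 908 to 1045 in SF, against 37.4 to 72.9 in the expanded libraries. The sum of 5 pericyte and smooth muscle markers did not drop in this way. It was 17370 to 17600 in TF, 25690 to 25970 in TE, 15120 to 16330 in SF, and 7252 and 25930 in SE. In TE versus TF 1 of these 5 rose and 4 fell. The part of these cells in the differences between fresh and expanded groups was not tested, and with bulk libraries fewer cells of a type and less RNA per cell cannot be told apart.

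ATF4 binds with a C/EBP partner to sites whose core reads TGATGNAA. To show where this core lies near the genes studied, the promoter windows of RefSeq (GRCm38.p6), from 250 bases before to 50 bases after the transcription start, were searched on both strands. All 10 genes had a window, Psat1 had 2, and the core was found in 3 of the 11 windows. Of all 32851 windows in the table, 3.97% hold it. The longer ER stress element was found in 0 of the 11 windows and in 0.119% of all windows. The windows of Asns and Chac1 are shown around the match, 5′ to 3′ along the gene, with the core in capitals, at chr6:7693214-7693243 (minus strand) for Asns and at chr2:119351009-119351096 (plus strand) for Chac1, where the core is on the strand opposite to the gene.
Asns: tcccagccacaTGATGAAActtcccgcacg
Chac1: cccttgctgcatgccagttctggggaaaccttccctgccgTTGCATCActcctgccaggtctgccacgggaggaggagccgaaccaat
Counted from the RefSeq start, the Asns match lies 23 to 16 bases before it and the Chac1 match 193 to 186 bases before it. In Trib3 the match, TTACATCA on the opposite strand, lies 15 to 22 bases after the RefSeq start. The GENCODE M21 annotation, used for the gene positions below, places these starts differently, so that the Asns match falls within the annotated gene and the Trib3 match before it. A match of letters is a description and not a measured binding site, and sites of the other genes may lie outside these windows.

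Among the stress regulators, Atf4, which encodes the transcription factor itself, lies on chromosome 15 from 80255184 to 80257541 (GENCODE M21, GRCm38, matched by symbol as for all genes below). Atf4 had 5763 and 5352 normalized counts in the TF replicates, 11820 and 12280 in TE, 7365 and 10250 in SF and 3814 and 5122 in SE. It was highest in TE, and the order of the group means was TE, SF, TF and SE. The TF and SE libraries stood close together at the low end, without overlap.

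Ddit3 encodes CHOP, a transcription factor of the C/EBP family that ATF4 induces and that can promote cell death (chromosome 10, 127290774 to 127296288). Ddit3 had 437 and 376 normalized counts in TF, 1279 and 1360 in TE, 472 and 553 in SF and 216 and 373 in SE. The TE libraries were well above the other 6, and the order was the same as for Atf4, with little between TF (407 ± 43.6, SD, n = 2) and SE (295 ± 111, SD, n = 2).

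Trib3 encodes a pseudokinase that ATF4 and CHOP induce and that restrains both AKT and ATF4 itself (chromosome 2, 152337422 to 152344032). Trib3 had 34.4 and 159 normalized counts in TF, 3851 and 3323 in TE, 22.6 and 52.8 in SF and 185 and 383 in SE. TE stood apart from all other libraries, SE was next, and the TF and SF replicates overlapped. The TF replicates were far apart, so that folds against TF depend on which of them is used.

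Chac1 encodes an enzyme that degrades the antioxidant glutathione (chromosome 2, 119351229 to 119354381). Chac1 had 56.4 and 75.7 normalized counts in TF, 1378 and 1655 in TE, 72.5 and 118 in SF and 160 and 291 in SE. Here the SE libraries lay above both fresh groups, which overlapped each other.

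Asns encodes asparagine synthetase, which makes asparagine from aspartate and glutamine and is the classic target of amino acid shortage (chromosome 6, 7675169 to 7693254). Asns had 498 and 481 normalized counts in TF, 6714 and 6476 in TE, 40.4 and 40.7 in SF and 1065 and 1668 in SE. The 4 groups did not overlap, in the order TE, SE, TF and SF. The raw counts behind the SF values were 34 and 37.

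The synthesis of serine from the glycolytic intermediate 3-phosphoglycerate takes 3 enzymes. The first is encoded by Phgdh (chromosome 3, 98313170 to 98339990), which had 578 and 728 normalized counts in TF, 5098 and 5252 in TE, 152 and 148 in SF and 2272 and 2097 in SE. The second, a transaminase, is encoded by Psat1 (chromosome 19, 15904678 to 15947337), with 481 and 689 in TF, 4162 and 3784 in TE, 96.3 and 134 in SF and 1320 and 1651 in SE. The third, a phosphatase, is encoded by Psph (chromosome 5, 129765558 to 129787449), with 93.5 and 132 in TF, 1559 and 1326 in TE, 15.5 and 37.4 in SF and 415 and 354 in SE. All 3 genes had the order TE, SE, TF and SF, and no group overlapped the next. Phgdh has 18 near copies in the annotation (other transcripts at least 90% identical over at least 200 bases), mostly processed pseudogenes. Reads could be split between them and Phgdh, but the 2 of them that the count table lists had at most 13 counts in a library.

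Serine is then converted in mitochondria into glycine and a one-carbon unit on folate, which serves the synthesis of nucleotides. Shmt2 (chromosome 10, 127517123 to 127522444), which encodes the mitochondrial serine hydroxymethyltransferase, had 887 and 784 normalized counts in TF, 4849 and 4847 in TE, 421 and 359 in SF and 2721 and 2748 in SE. Mthfd2 (chromosome 6, 83305691 to 83325908), whose product oxidizes the folate-bound unit and which is low in most adult tissues, had 560 and 960 in TF, 6127 and 5954 in TE, 403 and 374 in SF and 1219 and 1905 in SE. Both followed the order TE, SE, TF and SF without overlap, and Shmt2 differed least between the expanded groups.

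In all 10 genes both TE libraries were above each of the other 6 libraries, which was the case for 11% of all tested genes. The share of all tested genes in which the groups stood apart or in the order TE, SE, TF and SF was not counted. The orders and separations given above therefore describe single genes only.

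**Figure D1:**
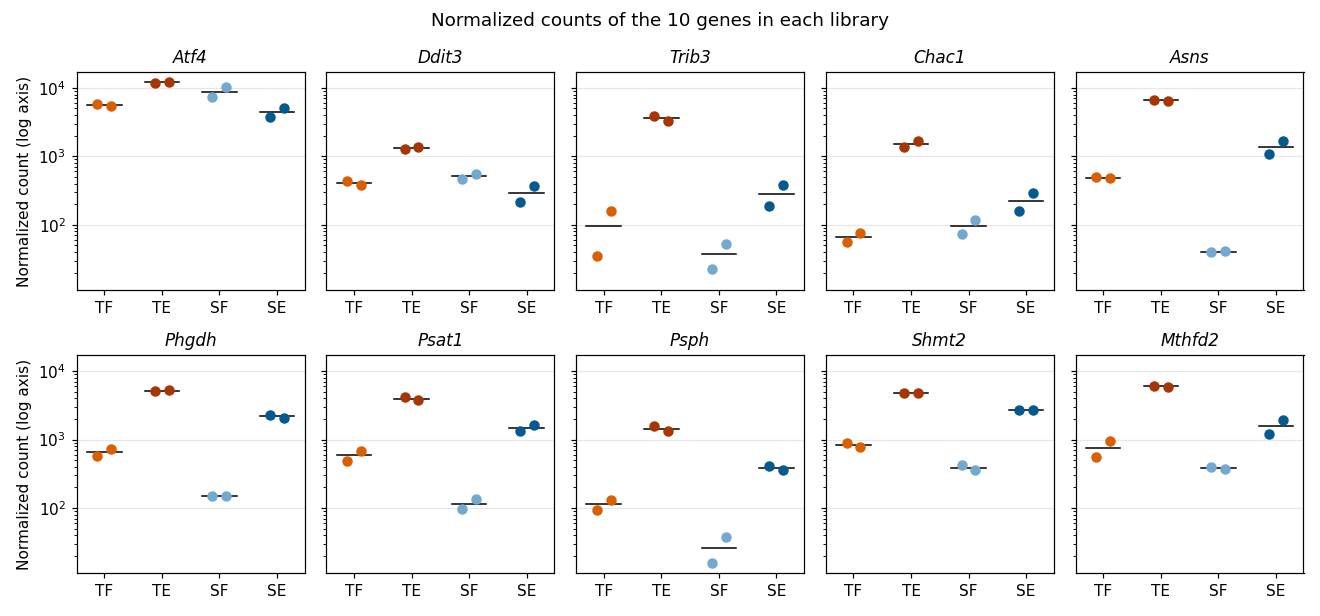
Normalized counts (log axis) of the 10 genes in each of the 8 libraries, as points, with the group mean as a line, for fresh (TF) and expanded (TE) teratoma-derived cells and fresh (SF) and expanded (SE) satellite cells. The TE points are the highest in every panel, SF is the lowest in Asns, the serine genes and the folate genes, and Atf4 and Ddit3 are lowest in SE.

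Levels can be set against each other between genes only per length. Divided by the length of the longest coding transcript, the mean level in TE was 6986 normalized counts per kb for Atf4, 3271 for Asns, 2897 for Mthfd2, 2734 for Phgdh and 2118 for Shmt2, while the other 5 genes lay between 832 (Psph) and 1770 (Trib3). In SF the order was different. Atf4 was again the highest at 5106 normalized counts per kb and Ddit3 was next at 576, whereas Asns at 20.1, Trib3 at 18.6 and Psph at 15.3 were the lowest. In SE the level per kb was 2590 for Atf4, 1195 for Shmt2 and 1154 for Phgdh, and 749 or less for the other 7 genes. Effective transcript lengths used by the submitters are not known, so these values describe the order only roughly.

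The first comparison set teratoma-derived cells after culture to passage 8 against freshly sorted ones (TE versus TF). All 10 genes rose, against 9.86% of all tested genes, and 0 fell, against 16.2% (quasi-likelihood test of edgeR, with an adjusted p under 0.05 and a change beyond 0.32 on the log2 scale). The median log2 fold change was 2.99 over the 10 genes and -0.18 over all tested genes. Trib3 and Chac1 rose most, by log2 fold changes of 5.20 (adjusted p = 0.000411, standard error 0.662, edgeR) and 4.52 (adjusted p = 5.64e-05, standard error 0.408). Asns rose 13.5-fold and Psph 12.8-fold, and the other serine and folate genes rose between 5.80-fold (Shmt2) and 7.94-fold (Mthfd2). Ddit3 rose 3.24-fold and Atf4 2.17-fold, the smallest changes of the 10 genes (log2 fold changes of 1.70 and 1.12, adjusted p = 0.00205 and 0.0059, edgeR). Of the proliferation list 0 of 8 genes passed in this comparison (1 at an unadjusted p under 0.05, 0 with DESeq2), while 6 of 8 terminal differentiation genes rose. For Trib3 the log2 fold change was 4.52 without TF replicate 1 and 6.73 without TF replicate 2. The 5 genes of chromosome Y with at least 50 normalized counts had a median log2 fold change of -5.10, beside 0.05 over all chromosomes. That median was -5.66 in TE versus SE and -0.55 in SE versus SF. The 10 genes lie on other chromosomes, and what this difference between the groups means for their values was not tested.

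The second comparison was the same culture in satellite cells (SE versus SF). Asns, the 3 serine genes, the 2 folate genes, Trib3 and Chac1 rose, 8 of 10 against 20.9% of all tested genes, while Atf4 and Ddit3 fell, 2 of 10 against 19.8%, a share close to that of all genes. The median log2 fold change was 2.85 over the 10 genes and -0.23 over all tested genes. Asns rose 33.6-fold, from 40.6 ± 0.22 normalized counts in SF to 1367 ± 427 in SE (SD, n = 2 in both groups), which is 5.07 on the log2 scale (adjusted p = 2.79e-06, standard error 0.276, edgeR). Phgdh rose 14.6-fold, Psph 14.4-fold and Psat1 12.9-fold. Shmt2 rose 7.01-fold and Mthfd2 4.02-fold. Of the proliferation list 7 of 8 genes rose with them, and of the terminal differentiation list 7 of 8, and their part in these values was not tested. Trib3 rose by a log2 fold change of 2.90, or 2.29 without SE replicate 2 and 3.66 without SF replicate 2, and Psph by 3.85, or 4.65 without SF replicate 2.

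The rise of Chac1 in satellite cells was smaller, with a log2 fold change of 1.24 (adjusted p = 0.0223, standard error 0.364, edgeR). It did not pass without SF replicate 1 (0.93, adjusted p = 0.126) or without SE replicate 2 (0.75, adjusted p = 0.133), nor with only the SE and SF libraries in the fit (adjusted p = 0.105). Atf4 fell by 0.98 on the log2 scale (adjusted p = 0.00711, standard error 0.226, edgeR). Ddit3 fell by 0.80 on the log2 scale (adjusted p = 0.0446, standard error 0.28), close to the threshold, and its call was lost when any library other than SE replicate 2 was left out, with a log2 fold change of -0.44 and an adjusted p of 0.29 without SE replicate 1. All 9 immediate early genes of a list, which respond within minutes to stimulation, fell in both origins with culture, with log2 fold changes of -10.07 for Fosb and -7.24 for Fos in TE versus TF, their summed level going from between 187100 and 216800 normalized counts in the fresh libraries to between 8786 and 9884 in the expanded ones. Their part in the levels of Atf4 and Ddit3 in fresh cells was not tested. The 498 genes of chromosome 15, where Atf4 lies, with at least 50 normalized counts had a median log2 fold change of 0.35 in SE versus SF, within the range of the autosomes (-0.04 to 0.38) and beside 0.23 over all chromosomes.

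**Figure D2:**
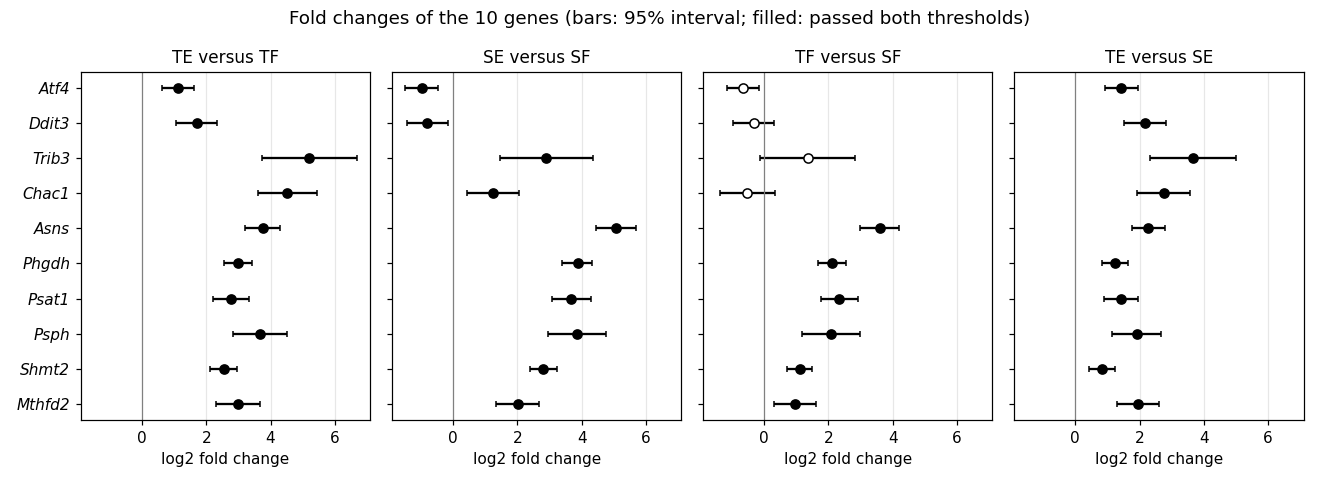
Log2 fold changes of the 10 genes in the 4 comparisons between groups (x axis), with 95% intervals as bars, filled points passing both thresholds. All 10 genes are to the right of 0 in TE versus TF and in TE versus SE, Atf4 and Ddit3 are to the left of 0 in SE versus SF, and the 4 stress regulators are open in TF versus SF.

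In the fresh groups (TF versus SF) all 6 biosynthetic genes were higher in TF, and the 4 stress regulators did not pass, with Atf4 and Trib3 passing under some alternatives. The count was 6 of 10 higher, against 15.1% of all tested genes, and 0 of 10 lower, against 9.13%. At an unadjusted p under 0.05, and also with DESeq2, 1 gene (Atf4) was lower. Of all calls in this comparison 62.3% were higher in TF, but only 52.1% with median-ratio size factors, which shifted the median of all genes by -0.16 on the log2 scale. Asns was higher in TF by 3.59 on the log2 scale (490 against 40.6 normalized counts, adjusted p = 8.12e-05, standard error 0.267, edgeR). Psat1 was 5.07-fold, Phgdh 4.36-fold and Psph 4.22-fold higher. The log2 fold change of Psph was 2.08, and 2.87 without SF replicate 2. With only the TF and SF libraries in the fit the adjusted p of Psph was 0.132. Shmt2 was 2.14-fold higher and Mthfd2 1.96-fold.

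The Mthfd2 difference between the fresh groups was weak. Its log2 fold change of 0.97 (adjusted p = 0.0366, edgeR) no longer passed without TF replicate 2 (0.52, adjusted p = 0.321), SF replicate 1 (1.01, adjusted p = 0.11) or SF replicate 2 (0.93, adjusted p = 0.098), or with median-ratio size factors (0.81, adjusted p = 0.0716). Atf4, with a log2 fold change of -0.66 (95% interval -1.17 to -0.16, adjusted p = 0.0587, edgeR), stood close to the threshold and passed it without SF replicate 1 (-0.90, adjusted p = 0.0239), SE replicate 1 (-0.67, adjusted p = 0.0288) or SE replicate 2 (-0.66, adjusted p = 0.025), and with median-ratio size factors (-0.82), no filter (-0.65), DESeq2 (-0.82) or only the TF and SF libraries (-0.75). Ddit3 had a log2 fold change of -0.33 (95% interval -0.96 to 0.29) and Chac1 of -0.53 (-1.38 to 0.33). Trib3 had 1.35 (-0.13 to 2.84), which was -0.15 without TF replicate 2 and 2.07 without TF replicate 1, where it passed. It also passed with no filter (1.36, adjusted p = 0.000112, edgeR), but its standard error there was 0.308 against 0.662 in the main fit. Proliferation genes moved with this comparison. Of 8 such genes, and also of 8 terminal differentiation genes, 7 were higher in TF than in SF, and the summed level of the former was 12320 and 13350 normalized counts in TF against 1493 and 838 in SF. The part of cell division in these differences was not tested.

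The expanded groups (TE versus SE) had been cultured alike and differed in all 10 genes. All 10 were higher in TE, against 3.15% of all tested genes, and 0 were lower, against 4.07%. The median log2 fold change was 1.93 over the 10 genes and -0.00 over all tested genes. Trib3, Chac1 and the biosynthetic gene Asns differed most, followed by Ddit3. Trib3 was 12.6-fold higher (log2 fold change 3.66, adjusted p = 0.00654, standard error 0.603, edgeR), Chac1 6.74-fold (2.75, adjusted p = 0.0022, standard error 0.368) and Ddit3 4.48-fold (2.16, adjusted p = 0.0021, standard error 0.287). Trib3 was 4.28 on the log2 scale without SE replicate 2. Atf4 itself was 2.70-fold higher.

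Of the biosynthetic genes, Asns was 4.83-fold higher in TE than in SE (log2 fold change 2.27, adjusted p = 0.000573, standard error 0.228, edgeR), Mthfd2 3.87-fold, Psph 3.75-fold, Psat1 2.67-fold and Phgdh 2.37-fold. Shmt2 was 1.77-fold higher, the smallest of the 10 differences (adjusted p = 0.0201, edgeR), and its call was lost without TE replicate 1 (adjusted p = 0.16) or TE replicate 2 (adjusted p = 0.172) at nearly the same log2 fold change of 0.84 and 0.83. That of Psph was lost without TE replicate 1 (1.80, adjusted p = 0.0659). Asns and Mthfd2 lie on chromosome 6, whose 637 genes with at least 50 normalized counts had a median log2 fold change of 0.53 in TE versus SE and 0.76 in TF versus SF, beside 0.00 and 0.25 over all chromosomes with the same minimum. The log2 fold changes of Asns, 2.27 and 3.59, were above both medians, and those of Mthfd2 were 1.95 and 0.97. The part of the chromosome in these values was not tested. Between the expanded groups 3.15% of all tested genes were higher and 4.07% lower in TE. Of the proliferation and the terminal differentiation list 0 of 8 genes each passed, which is close to these shares. In each list 1 gene was lower in TE at an unadjusted p under 0.05, and 0 passed with DESeq2. The SE replicates differed in both lists, with summed levels of 25690 and 11060 normalized counts for proliferation and 121000 and 270900 for terminal differentiation.

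Whether culture acted differently in the origins was tested as the difference between TE versus TF and SE versus SF. This difference passed for 3 genes in the higher direction, Atf4, Ddit3 and Chac1, against 4.7% of all tested genes. It passed for 1 of the 10 genes in the lower direction, Asns, against 9.62%, a share close to that of all genes. For Atf4 it was 2.10 on the log2 scale (adjusted p = 0.00295, standard error 0.32, edgeR), for Ddit3 2.50 (adjusted p = 0.00344, standard error 0.397) and for Chac1 3.28 (adjusted p = 0.0035, standard error 0.523). In the separate comparisons above, Atf4 and Ddit3 rose in teratoma-derived and fell in satellite cells. The call for the fall of Ddit3 was lost when any library other than SE replicate 2 was left out. It was also lost with glmTreat and with only the SE and SF libraries. Median differences over the genes of chromosomes 15 (Atf4) and 2 (Chac1, Trib3) with at least 50 normalized counts were -0.42 and -0.31, beside -0.24 over all chromosomes and -0.42 to -0.08 over the autosomes. In the lower direction, 6 of 8 proliferation and 7 of 8 terminal differentiation genes passed the same test. For Asns the difference was -1.32 (adjusted p = 0.0299, standard error 0.338, edgeR). Its rise was smaller in the teratoma-derived cells, which started from 490 normalized counts against 40.6 in SF and reached the higher final level. The call of Asns was lost without either TF, TE or SF replicate, with adjusted p-values between 0.0503 and 0.106 and log2 differences between -1.34 and -1.29, and the log2 difference was -0.97 without SE replicate 2, where it passed.

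The other 6 genes did not pass this test. The log2 difference was 2.31 for Trib3 (95% interval 0.35 to 4.26, adjusted p = 0.113, edgeR), and Trib3 passed without TF replicate 2 (3.82) or SE replicate 2 (2.92), with no filter (2.30), with DESeq2 (2.43) and with a replicate block (2.60, adjusted p = 0.0294). With no filter its standard error was 0.407 against 0.871 in the main fit. The difference of Trib3 was smaller, and did not pass, without TF replicate 1 (1.60) or SF replicate 2 (1.54). It was 0.98 for Mthfd2 (0.09 to 1.88), which passed without TF replicate 2 (1.44) or SE replicate 2 (1.33), with no filter (0.97) and with DESeq2 (1.12). It was -0.88 for Phgdh (-1.47 to -0.29, adjusted p = 0.0521), which passed without SE replicate 2 (-0.94) and with DESeq2 (-0.74). It was -0.92 for Psat1, -0.27 for Shmt2 and -0.17 for Psph, and that of Psph had the opposite sign without TF replicate 2 (0.12) or SF replicate 1 (0.35).

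**Figure D3:**
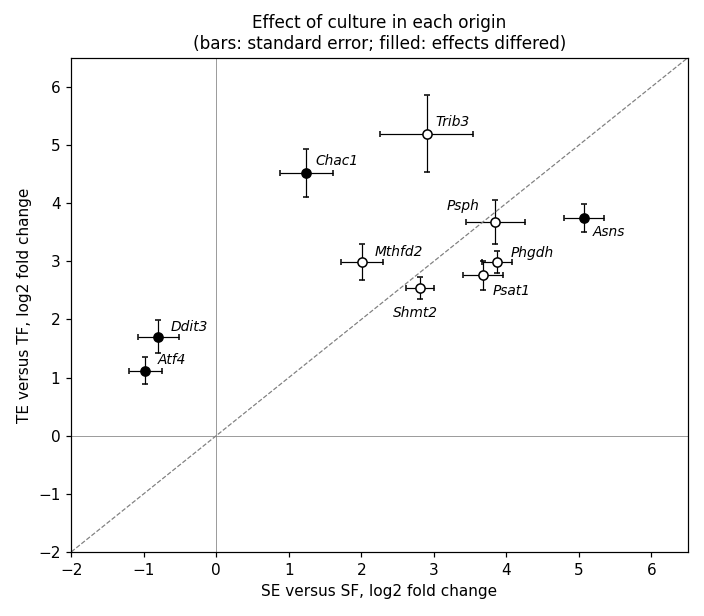
Log2 fold change with culture in satellite cells (x axis) and in teratoma-derived cells (y axis) for each of the 10 genes, with standard errors as bars and the dashed line where both are equal. Filled points are the 4 genes whose effects differed by the test of the difference, with Atf4, Ddit3 and Chac1 above the line and Asns below it.

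The genes whose pattern over the 8 libraries was most like that of each of the 10 genes were found by the root mean square difference of centred log2 normalized counts, over 12718 other genes with at least 50 normalized counts. The closest gene to Psat1 was Phgdh, at 0.229 on the log2 scale, and the closest to Psph was Psat1, at 0.412. Atf4 was closest to Dbt (0.186) and Ptprf (0.197). Ddit3 was closest to Slc3a2 (0.205), which encodes the heavy chain of the large neutral amino acid transporter, and then to Ptprf (0.248). Trib3 was closest to the cationic amino acid transporter gene Slc7a3 (0.699) and to Psph (0.945). Chac1 was closest to Cyb5r1 (0.57) and Crabp2 (0.58). Asns was closest to Aldh1l2 (0.451), a mitochondrial folate enzyme gene, and to Hspb2 (0.615). Phgdh was also close to Nes (0.355), which encodes nestin. Shmt2 was closest to Akr1b8 (0.255) and Mthfd1l (0.283), which encodes a further mitochondrial folate enzyme, and Mthfd2 to Gars (0.26), which encodes glycyl-tRNA synthetase, and Pck2 (0.328). Among the 10 genes Atf4 and Asns were the least alike, at 2.64. The libraries share group and depth, so these values describe likeness and nothing more.

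Lists of further genes, put together from what their products do, were counted in each comparison. Of 57 genes in 5 lists (partners and other stress targets of ATF4, amino acid transporters, aminoacyl-tRNA synthetases, other folate and glycine enzymes, other amino acid synthesis), 31 were higher and 0 lower in TE than in SE, beside 3.15% and 4.07% of all tested genes. In TE versus TF 32 were higher and 5 lower, beside 9.86% and 16.2% of all tested genes. In SE versus SF 21 were higher and 11 lower, beside 20.9% and 19.8%, and in TF versus SF 13 and 10, beside 15.1% and 9.13%. The counts of 0 given for these lists were also 0 at an unadjusted p under 0.05 and with DESeq2.

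Of the 12 ATF4 partners and stress targets, 9 were higher in TE than in SE, against 3.15% of all tested genes, and 3 did not pass. Among the 9, Jdp2 (log2 fold change 0.70) did not pass with glmTreat, with a replicate block or with only the TE and SE libraries. Cebpg and Stc2 did not pass without SE replicate 1 or without either TE replicate, nor Cebpb without TE replicate 2. Atf3, encoding a stress-induced transcription factor, was higher by a log2 fold change of 2.72, Atf5, a close relative of Atf4, by 1.95, Sesn2, encoding an inhibitor of mTORC1 in amino acid shortage, by 1.82, and Vldlr, encoding a lipoprotein receptor, by 1.81 (adjusted p = 0.0071, 0.00247, 0.00272 and 0.027, edgeR). Vldlr did not pass without TE replicate 2 (1.78, adjusted p = 0.0549) and was 2.72 without SE replicate 2, and Atf3 was 2.07 without SE replicate 1 and 3.89 without SE replicate 2. In SE versus SF 2 of the 12 rose and 2 fell, shares close to the 20.9% and 19.8% of all tested genes. The 12 aminoacyl-tRNA synthetase genes, whose products load amino acids onto tRNA, all rose in TE versus TF, against 9.86% of all tested genes. Gars rose 7.76-fold, Iars 5.68-fold, Nars 4.70-fold and Lars 4.46-fold. In SE versus SF 8 of the 12 rose and 0 fell, beside 20.9% and 19.8% of all tested genes. In TE versus SE 9 of the 12 were higher (12 with DESeq2), beside 3.15% of all tested genes. Of these 9, Iars, Lars, Nars, Sars and Wars did not pass without TE replicate 1 or without TE replicate 2. Their log2 fold changes were nearly the same in those fits. Aars and Eprs did not pass without TE replicate 1. Nars, Sars and Wars also did not pass with glmTreat.

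Of the 9 amino acid transporter genes, 7 rose and 0 fell in TE versus TF, beside 9.86% and 16.2% of all tested genes. Among the 7, Slc7a11 (log2 fold change 1.47) did not pass without TF replicate 1 (1.13) or without either TE replicate. Slc7a3, a carrier of cationic amino acids, rose by a log2 fold change of 4.66, or 3.86 without TF replicate 1 and 6.88 without TF replicate 2, since the TF replicates had 6.88 and 56.1 normalized counts. The glycine carrier Slc6a9 rose 9.04-fold, the leucine carrier Slc7a5 7.68-fold and the arginine and lysine carrier Slc7a1 5.98-fold. In SE versus SF 2 of the 9 rose and 2 fell, shares close to the 20.9% and 19.8% of all tested genes. The difference between the origins passed for 6 of the 9, all in the higher direction, against 4.7% of all tested genes. For Slc1a5 and Slc38a2 it did not pass without TF replicate 1 or without either TE replicate.

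Among the 14 other folate and glycine enzyme genes, 4 rose and 3 fell in SE versus SF, beside 20.9% and 19.8% of all tested genes. Aldh1l2 and Mthfd1l, both mitochondrial, rose by log2 fold changes of 4.41 and 2.65, while Tyms, needed for thymidylate synthesis, had a log2 fold change of -2.08. This rested on SF replicate 1, with 3806 normalized counts of Tyms against 671 in SF replicate 2 and 649 and 409 in SE. Without SF replicate 1 it was -0.34 (adjusted p = 0.62, edgeR), without SF replicate 2 -2.83, and it did not pass without SE replicate 2 (-1.77, adjusted p = 0.073). Aldh1l1, the cytosolic relative of Aldh1l2, had 0 counts in both SE libraries and was at least 44.1-fold lower than in SF (3 counts per library as the floor). Among the 10 other amino acid synthesis genes 5 rose and 4 fell in the same comparison, with the same shares of all genes beside them. Aldh18a1, for proline synthesis, rose by a log2 fold change of 2.61 and Pck2, the mitochondrial phosphoenolpyruvate carboxykinase gene, by 2.22. Glul, encoding glutamine synthetase, fell from 13510 to 881 normalized counts (-3.94 on the log2 scale, -4.59 without SE replicate 2), and Cbs, of the transsulfuration pathway, had 214 ± 23.1 in SF (SD, n = 2) against 11 raw counts in SE replicate 1 and 0 in SE replicate 2.

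Upstream of ATF4, the list of 8 genes holds the eIF2alpha kinases, the GCN2 activator gene Gcn1l1, the substrate and its phosphatase subunits. In TF versus SF 3 were higher and 3 lower, beside 15.1% and 9.13% of all tested genes. Eif2ak3, encoding the ER-resident kinase PERK, was 4.31-fold higher in TF and Eif2ak1 1.82-fold, whereas Eif2ak2, which responds to double-stranded RNA, and Eif2ak4, encoding the amino acid sensor GCN2, were lower, with log2 fold changes of -1.49 and -0.94. The calls of Eif2ak1, Eif2ak2 and Eif2ak4 were each lost in at least 2 of the fits that left out a library, and Eif2ak2 was -0.48 without SF replicate 1 (adjusted p = 0.371, edgeR). In TE versus SE 1 of the 8 was higher, Ppp1r15a (named after its value was seen), and 0 were lower. Of the 12 genes of the ER chaperone and unfolded protein response list, 0 rose and 5 fell in TE versus TF, beside 9.86% and 16.2% of all tested genes. Among the 5, Hspa5, Creld2, Pdia4 and Sdf2l1 did not pass without TE replicate 1 or without TE replicate 2. In SE versus SF 4 rose and 6 fell, beside 20.9% and 19.8%, and in TE versus SE 2 were higher and 0 lower, beside 3.15% and 4.07%. The rise of Sdf2l1 in SE versus SF did not pass under any of the 14 alternatives. There the rises of Hsp90b1 and Sel1l and the fall of Herpud1 did not pass without SE replicate 1 or with only the SE and SF libraries. In SE versus SF Edem1, Dnajb9 and Xbp1 had log2 fold changes of -2.27, -1.98 and -1.79, and the ER chaperone gene Pdia4 of 1.80.

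**Figure D4:**
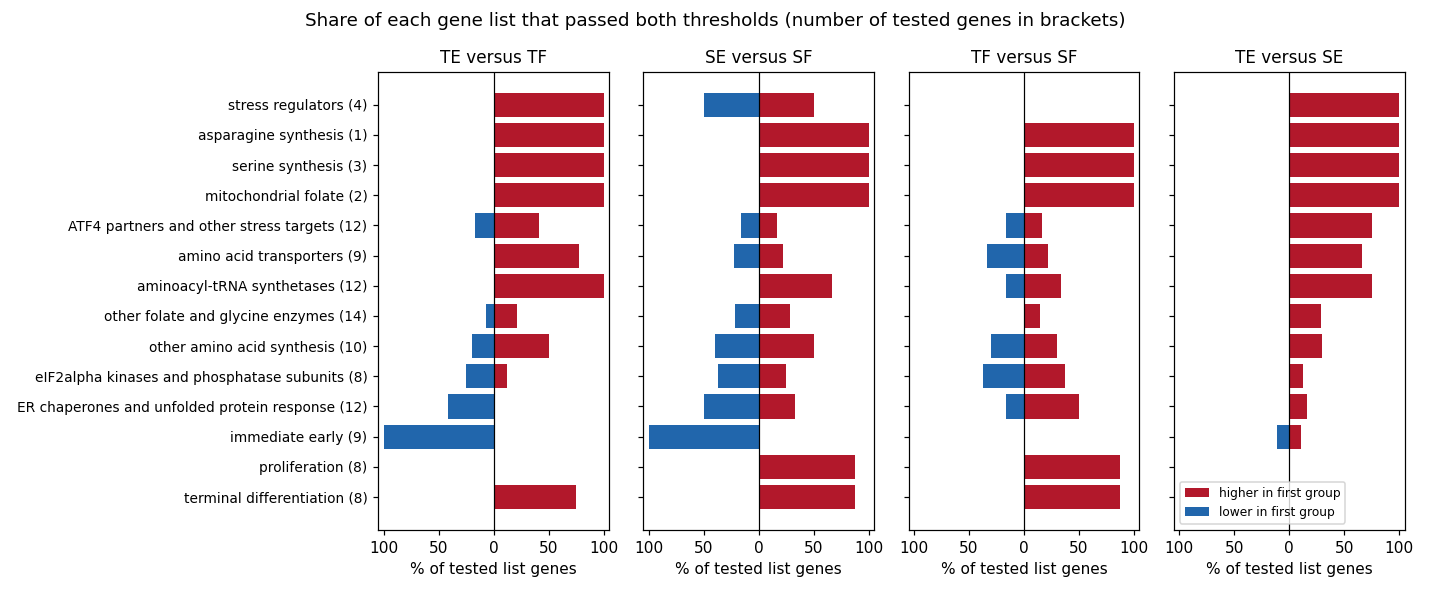
Share of the tested genes of each list (x axis, %) that passed both thresholds in the 4 comparisons, to the right where higher and to the left where lower in the first group named. In TE versus SE the 4 groups of the 10 genes studied reach 100, the synthetases 75, and the proliferation and terminal differentiation lists 0. Of all tested genes 3.15% were higher and 4.07% lower in that comparison, and the asparagine synthesis group is 1 gene.

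**Figure D5:**
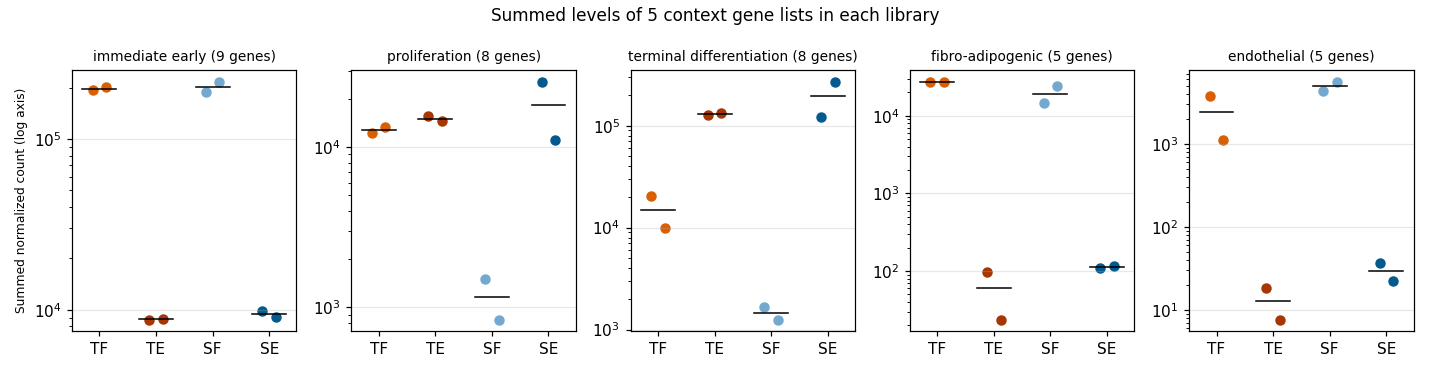
Summed normalized counts (log axis) of 5 lists in each of the 8 libraries, as points, with group means as lines. Immediate early, fibro-adipogenic and endothelial genes are high in both fresh groups and low in both expanded groups, while the proliferation list is lowest in SF.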

How the data were processed

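RNA-seq libraries of 8 samples (4 groups of 2, grouped by the sample titles) were analysed. The authors deposited 1 table of estimated counts per gene symbol, without normalization, and in each library 74.4% to 84.4% of its values were whole. The submitters' processing notes name CASAVA, kallisto 0.44.0 and the builds GRCm38 and mm10, without roles, and the annotation is not given in the sources used here. The kit was strand-specific and reads were paired. Shared reads may have been divided between similar genes. 0 rows lacked a gene name.

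Counts were rounded. Genes were filtered with filterByExpr, normalized by TMM and tested in 1 fit over the 4 groups with edgeR's quasi-likelihood test. A call needed a Benjamini-Hochberg adjusted p below 0.05 over all 17582 tested genes and a change beyond 0.32 on the log2 scale, the thresholds of the study's methods. Standard errors were derived from the fold change and its F statistic. The common dispersion was 0.233, and with 2 libraries per group the spread is estimated weakly. The fit was tested on simulated data for TE versus SE. It recovered 17% of 100 genes changed 2- to 3-fold and 61% of 100 genes changed 4- to 8-fold. Of all calls there, 3.7% were false. A gene that did not pass may therefore still differ. Alternatives were median-ratio size factors, no filter, DESeq2, only the compared groups, a replicate block, glmTreat and each library left out. The same settings were run for the list genes, a choice made after the data were seen. Symbols were matched to GENCODE M21 (98.7% of tested genes), and near copies were sought with BLAST 2.17.0.

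The genes studied and the lists were chosen with earlier results of these data known. Named by a rule were all 10 genes, up to 4 genes per list by size of change in the comparison with most calls, and the 2 genes most like each gene. Other list genes and comparisons, such as those under other observations and those whose calls changed, were named outside this rule with their values known. R 4.3.3, edgeR 4.0.16 and DESeq2 1.42.0 were used. Engraftment and protein measurements were not analysed here.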

Additional observations from a re-analysis of the deposited data

Results flagged for a closer look

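The effect of culture differed between teratoma-derived and satellite cells, by the test of the difference itself, in 4 of the 10 genes, 3 of them higher and 1 lower in teratoma-derived cells, beside 4.7% and 9.62% of all tested genes. The share that was lower, 1 of 10, was close to that of all genes. The log2 difference was 2.10 for Atf4, 2.50 for Ddit3 and 3.28 for Chac1, and -1.32 for Asns (adjusted p = 0.00295, 0.00344, 0.0035 and 0.0299 from edgeR's quasi-likelihood test). For Atf4 and Ddit3 the direction was opposite, with log2 fold changes of 1.12 and 1.70 in TE versus TF and of -0.98 and -0.80 in SE versus SF. The fall of Ddit3 (adjusted p = 0.0446, edgeR) lost its call when any library except SE replicate 2 was left out, with -0.44 without SE replicate 1. Chac1 and Asns rose in both origins, the rise of Chac1 in SE versus SF not passing without SF replicate 1 (0.93) or SE replicate 2 (0.75). The difference for Asns lost its call without any 1 of the TF, TE or SF libraries (adjusted p between 0.0503 and 0.106, edgeR).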

How the results depend on the processing

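All 10 calls in TE versus TF held under each of the 14 alternatives, and 8 of 10 results in SE versus SF, 6 of 10 in TF versus SF and 8 of 10 in TE versus SE kept direction and side of the threshold. In the difference between origins, which cannot be had from 2 groups alone, 5 of 10 did under the other 13. The number of genes lower in SE than in SF, 2, was 1 with only the compared groups and with glmTreat, and 1 to 2 with a library left out. The number lower in TF than in SF, 0, was 1 with median-ratio size factors, no filter, DESeq2 or only the compared groups, and 0 to 1 with a library left out. For the difference between origins, the 3 higher genes became 5 with no filter and with DESeq2, and 3 to 5 with a library left out, and the 1 lower gene became 2 with DESeq2, and 0 to 2 with a library left out. Signs reversed for Trib3 in TF versus SF without TF replicate 2 (-0.15, up to 2.12 without SF replicate 2) and for Psph in the difference between origins without TF replicate 2 (0.12) and SF replicate 1 (0.35, down to -0.97 without SF replicate 2). The cause was not tested.

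Same-numbered replicates did not deviate together (correlations between -0.0348 and 0.0233). With a replicate block, 4 genes were higher in the difference between origins, Trib3 being added (2.60, adjusted p = 0.0294, edgeR), and no other call of the 10 genes changed.

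Over all tested genes, calls moved by over 1.5 times as follows. Genes higher in TE than in TF, 1733, were 2667 with only the compared groups and 811 to 2116 with a library left out. Genes lower in TF than in SF, 1606, were 2626 with DESeq2, and those higher, 2655, and lower were 1693 to 3119 and 932 to 1986 with a library left out. In TE versus SE, 553 higher and 715 lower were 902 and 1358 with no filter, 895 and 1252 with DESeq2, and 272 to 741 and 381 to 957 with a library left out. In the difference between origins, 826 higher were 1284 with no filter, 1538 with DESeq2 and 457 to 1074 with a library left out, and 1691 lower were 1010 to 1922. With DESeq2 the ER list had 9 genes lower in TE than in TF (5 in edgeR) and 4 higher in TE than in SE (2), and the kinase list 2 higher in TE than in SE (1). Median-ratio size factors shifted the median of all genes by -0.19 in SE versus SF and by 0.14 in the difference between origins. Leaving out a library leaves its group with 1, which is then assumed to vary like the others.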

Other observations

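Several stress genes outside the 10 studied were lowest in SE. They were chosen after their values were seen. Ppp1r15a, encoding the inducible subunit of the eIF2alpha phosphatase, had 12320 and 11100 normalized counts in TF, 8505 and 7985 in TE, 16710 and 21800 in SF and 776 and 1482 in SE. The difference between the effects of culture in the origins was 3.59 on the log2 scale for Ppp1r15a, 3.46 for Atf3 and 2.84 for Cebpb, which encodes a binding partner of ATF4 (adjusted p = 0.000826, 0.00574 and 0.000847, edgeR's quasi-likelihood test). In TE versus TF Atf3 and Cebpb fell, with log2 fold changes of -2.68 and -0.95, while the 10 genes studied rose. The fall of Cebpb did not pass without TF replicate 1 (-0.72), TE replicate 1 (-0.89) or TE replicate 2 (-0.95), and the Atf3 difference between origins was 2.81 without SE replicate 1 and 4.63 without SE replicate 2.

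Cth, Hspa5, Edem1 and Xbp1 were likewise named for TE versus SE after their values were seen. Cth, encoding the last enzyme of cysteine synthesis by transsulfuration, had 13.8 and 9.13 normalized counts in TF, 1242 and 1298 in TE, 2.38 and 52.8 in SF and 95.6 and 60.8 in SE. It was higher in TE than in SE by 4.02 on the log2 scale (adjusted p = 0.0143, edgeR, standard error 0.782). The ER chaperone gene Hspa5, which encodes BiP, had 13230 and 14110 normalized counts in TE and 11870 and 11170 in SE, which differ by 0.25 on the log2 scale without passing (adjusted p = 0.598, edgeR). The unfolded protein response genes Edem1 and Xbp1 were the 2 of their list that were higher in TE than in SE, by log2 fold changes of 2.19 and 0.86. Xbp1 did not pass without SE replicate 1 (0.82), TE replicate 1 (0.82) or TE replicate 2 (0.92), nor with a replicate block (adjusted p = 0.0546, edgeR).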
